A study of Drosophila melanogaster with 15 samples.

Results

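The vacuolar proton ATPase (V-ATPase) is the rotary pump that uses ATP to move protons into lysosomes, endosomes and secretory vesicles. Its subunit genes in Drosophila carry symbols that begin with Vha, and every row of the deposited expression table whose FlyBase identifier has such a symbol was taken, whatever its values. This gave 32 genes of the 17509 in the table. They comprised 12 genes of the cytosolic V1 domain, 18 of the membrane V0 domain and 2 of the accessory protein AC45. Vha44, which encodes subunit C of V1, was not analysed here, so the sums and shares of V1 and of all Vha genes leave it out.

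The cells were astrocytes sorted by their red nuclear fluorescence from adult brains of flies of the genotype R86E01-Gal4/UAS-Redstinger, which all groups shared. R86E01-Gal4 is a driver active in astrocytes, so the sorted population is what this driver labels. Uninjured flies were compared with flies taken 4 hr or 24 hr after traumatic brain injury (TBI), delivered 3 days after eclosion with a high-impact trauma device that strikes the whole fly, and each group had 5 libraries described as biological replicates. One library came from about 1600 sorted cells pooled from about 50 brains, and its RNA was copied from the poly(A) tail and amplified by Smart-seq2. The values are TPM, a transcript level scaled to the length of the transcript and to a library total that is the same in every library.

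In the V-ATPase, V1 splits ATP and V0 carries the protons. A ring of alternating A and B subunits turns a central stalk made of D and F, and peripheral stalks of E and G, with C and H, hold the ring in place. In V0, a ring of c and c'' subunits rotates against subunit a, d couples it to the stalk, and e is a small membrane subunit. The pump is controlled in part by the reversible separation of V1 from V0, and in glia, as in other cells, it acidifies the compartments in which engulfed material is digested.

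The libraries differed in ways that bear on every gene. All 8 astrocyte markers examined were above 0 in all 15 libraries and summed to a mean of 5.85%, 6.45% and 7.03% of TPM in the uninjured, 4 hr and 24 hr groups. Markers of hemocytes, muscle, photoreceptors and fat body were low but not absent, and those of neurons and other glia are given below. The hemocyte, muscle and photoreceptor lists, with 5 of 6 genes above 0 in some library each, summed to at most 0.00026%, 0.000469% and 0.000175% of TPM in any library, with He, Act57B and ninaC at 0 in all. The muscle share was 0% to 2.5e-05% in uninjured libraries and higher without overlap at 4 hr (5.8e-05% to 0.000469%) and at 24 hr (6.6e-05% to 0.000223%), and the hemocyte share was above all uninjured libraries in 4 of 5 libraries of each TBI group. The fat body list had 4 of 5 genes above 0, with Fbp2 at 0 in all and apolpp above 0 in all 15 libraries at a mean of 22.3, 11.2 and 29.9 TPM. The part of these cells in the Vha levels was not tested. Mitochondrial transcripts took 32.7% to 51.8% of TPM in uninjured libraries, 11.5% to 43.2% at 4 hr and 15.2% to 37.2% at 24 hr, and the median log2 fold change of all 8101 tested genes was 0.31 at 4 hr and 0.51 at 24 hr. In 4 libraries, replicates 1 and 2 of both TBI groups, levels climbed with exonic length by 0.25 to 0.39 on the log2 scale per doubling of length, against -0.06 to 0.16 in the other 11. These values are given beside the results they move with. TPM keeps no record of depth, so the number of reads behind a value is unknown. In such sorted pools, fewer cells that express a gene and less of its RNA per cell cannot be told apart.

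Of the 32 genes, 18 passed the filter on low values, which was at least 1 TPM in at least 5 of the 15 libraries. In uninjured astrocytes, the levels of these genes formed 3 tiers. Each domain of the pump kept 8 genes, and both AC45 genes passed. The highest mean level was that of the V0 subunit e gene VhaM9.7-b, at 501 ± 177 TPM (SD, n = 5), followed by the central stalk subunit D gene Vha36-1 at 319 ± 66.7 TPM, and these overlapped between libraries. VhaPPA1-1 (subunit c''), VhaAC39-1 (d), Vha55 (B), Vha26 (E) and Vha16-1 (c) had means of 216, 178, 177, 159.5 and 147 TPM, with overlapping ranges. The lowest uninjured library among these 7 genes was at 123.9 TPM, for Vha16-1. A middle tier of 9 genes, from Vha13 (G) at 71.0 TPM to Vha68-2 (A) at 14.7 TPM, ran from 8.48 to 103 TPM over its libraries, and Vha100-2 (a) and VhaAC45RP stayed between 0 and 5.38 TPM.

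**Figure D1:**
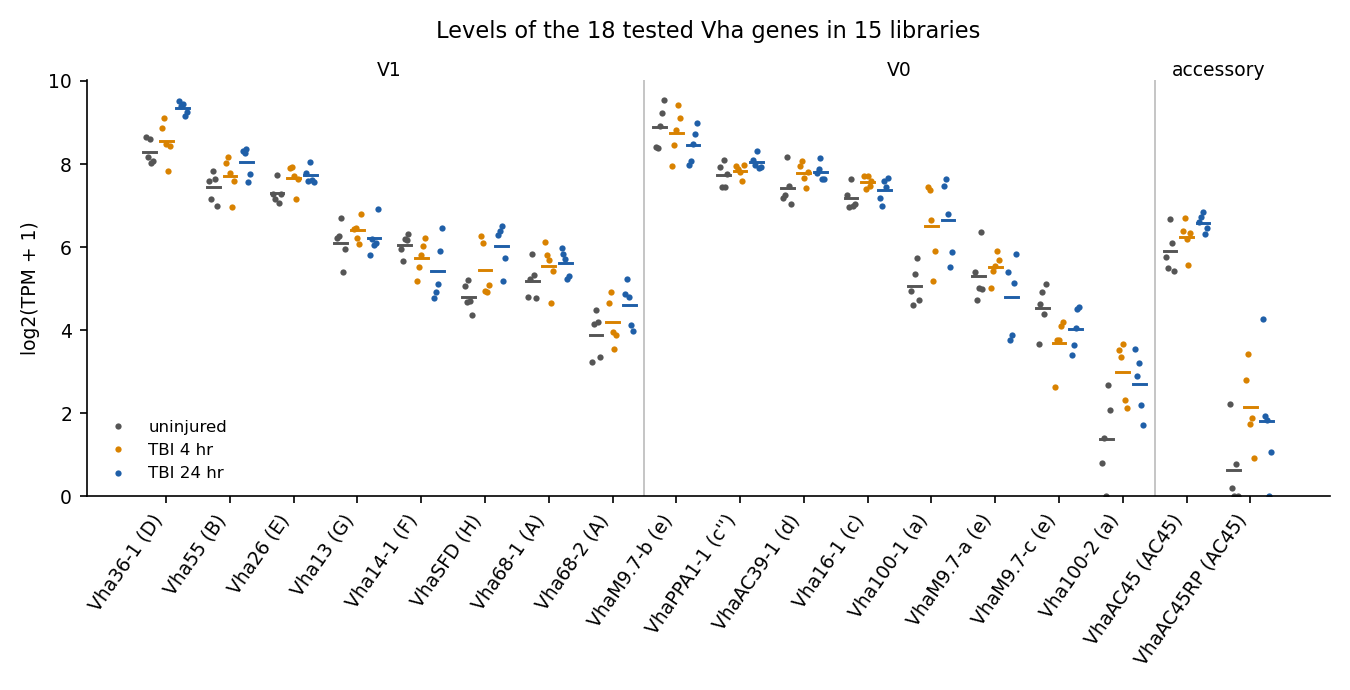
Level of each of the 18 tested Vha genes as log2(TPM + 1) in the uninjured, 4 hr and 24 hr libraries, with 1 point per library, a line at the mean of these log values and the subunit in brackets. In the uninjured group VhaM9.7-b was highest with a mean of 501 TPM, and at 24 hr Vha36-1 was highest with 654 TPM.

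For most subunits encoded by several genes, 1 isoform supplied nearly all of the transcript. The split between genes alike in sequence rests on how shared reads were assigned, which is not given in the sources used here. Vha36-1 made up 99.8% of the summed TPM of subunit D in uninjured libraries, Vha16-1 100% of subunit c and Vha100-1 94.0% of subunit a. The A subunit, which carries the catalytic site for ATP, came from a pair of genes. Vha68-1 held 72.1%, 72.5% and 67.3% of its sum in the uninjured, 4 hr and 24 hr groups. These groups overlapped, with 2 of 5 libraries at 24 hr below all uninjured ones. VhaM9.7-b held 88.1%, 88.2% and 88.5% of subunit e in the uninjured, 4 hr and 24 hr groups.

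The 14 genes that did not pass the filter were all further isoforms of subunits whose main gene passed. Vha100-3, Vha16-5 and VhaM9.7-d were listed at 0 in all 15 libraries. The most abundant of the others was Vha36-3, which reached 5.31 TPM in one 4 hr library and was above 0 in 7 of 15. VhaPPA1-2 reached 3.47 TPM, Vha16-4 1.39 TPM and Vha16-2 1.35 TPM, and the remaining 7 stayed below 1 TPM in every library. Vha16-2 shares 84.5% of its exonic bases with the antisense gene asRNA:CR46049, and reads of the pair cannot be told apart without strand.

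At 4 hr after TBI, none of the 18 tested Vha genes passed the threshold, which was an adjusted p below 0.01 by limma with Benjamini-Hochberg adjustment over all tested genes and at least a doubling on the log2(TPM + 1) scale, on which all fold changes are given. In all tested genes, 5.76% were called higher and 0.222% lower in this comparison. The Vha log2 fold changes ran from -0.85 to 1.60 with a median of 0.32, beside 0.31 for all genes. Of the 18 genes, 15 were above 0 and 9 were above the median of all genes. At an unadjusted p below 0.05 there were 5 Vha genes of 18, beside 27.1% of all genes.

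At 24 hr after TBI, 1 of the 18 genes was called higher, Vha36-1, and none lower, beside 2.26% higher and 0.0617% lower in all tested genes. The Vha log2 fold changes ran from -0.63 to 1.58 with a median of 0.42, below the 0.51 of all genes, and 8 of 18 exceeded that median. The V1 genes had a median of 0.52 and the V0 genes 0.25. At an unadjusted p below 0.05 there were 9 Vha genes of 18, beside 39.2% of all genes. Both TBI comparisons share the same 5 uninjured libraries. The medians moved with the library scale: under 5 other scalings or corrections the Vha median was between -0.13 and 0.08 at 24 hr and between -0.04 and 0.04 at 4 hr, and the median of all genes between -0.02 and 0.19 and between -0.06 and 0.04.

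**Figure D2:**
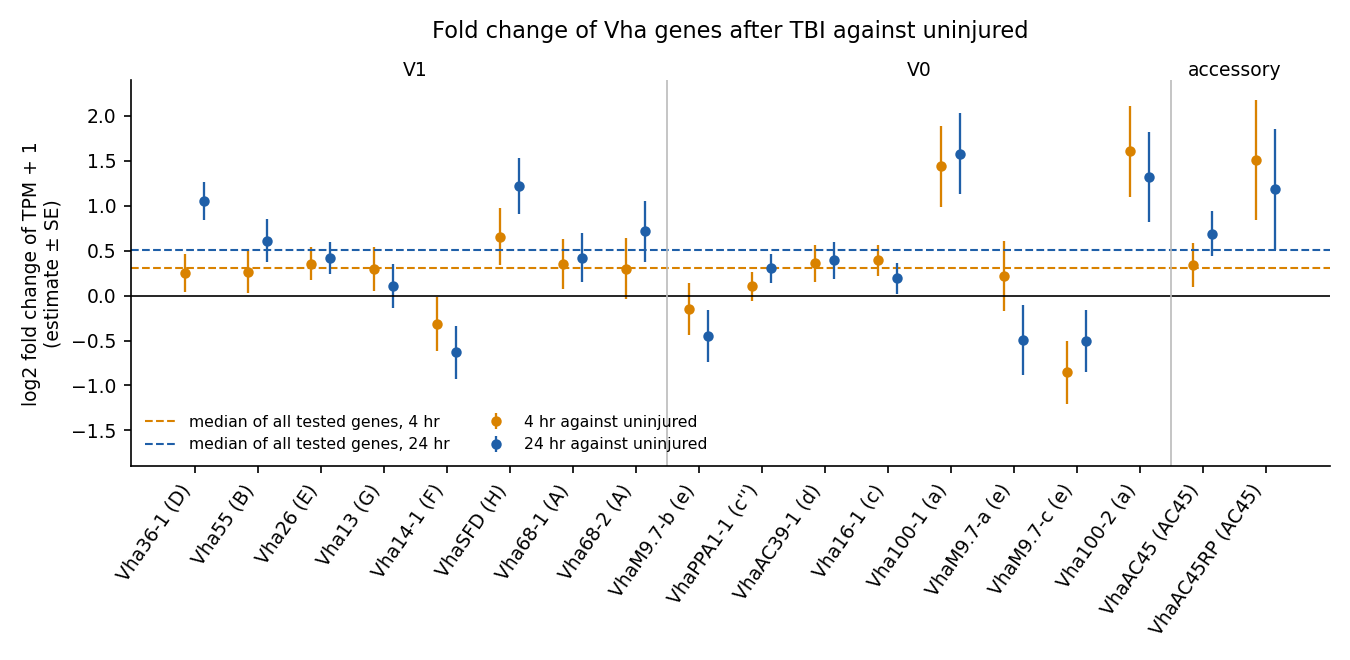
Log2 fold change against uninjured (limma, log2(TPM + 1) scale, bars are standard errors) for the 18 tested Vha genes in each TBI group, with the median of all tested genes marked. At 24 hr Vha36-1 was at 1.05 and Vha100-1 at 1.58, and Vha14-1 was lowest at -0.63.

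Vha36-1 encodes subunit D, the part of the central stalk that turns inside the catalytic ring. It is a single-exon gene on chromosome arm 2R at 15541435 to 15542498 of the dm6 assembly, plus strand, with 1064 exonic bases. Its level in uninjured replicates 1 to 5 was 398, 286, 386, 261 and 266 TPM. At 4 hr it was 463, 555, 356, 227 and 348 TPM, and at 24 hr it was 726, 677, 696, 565 and 604 TPM. The 4 hr libraries spread on both sides of the uninjured ones, while all 5 of the 24 hr libraries lay above every uninjured and every 4 hr library. It was the only Vha gene without overlap at 24 hr against uninjured, and also the only one at 24 hr against 4 hr. Among all tested genes, groups did not overlap in 12.5% (24 hr above) and 0.518% (below) at 24 hr against uninjured, and in 3.47% and 3.63% at 24 hr against 4 hr. At 4 hr against uninjured no Vha gene had groups apart, beside 8.68% (above) and 0.839% (below) of all genes.

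From uninjured to 24 hr, Vha36-1 rose by 1.05 on the log2 scale (SE 0.21, adjusted p = 0.0064 by limma). This was 0.54 above the median of all genes, and 79.8% of tested genes had a smaller log2 fold change. At 4 hr it stood at 0.25 (SE 0.21, adjusted p = 0.48). Between 4 hr and 24 hr it differed by 0.80 (SE 0.21, adjusted p = 0.036), short of the threshold, which no Vha gene passed in that comparison, where 0.420% of all genes were called higher and 1.58% lower at 24 hr. Vha36-1 was the 1 Vha gene of 18 at an unadjusted p below 0.05 there, beside 19.0% of all genes. Without the 4 libraries whose levels climbed with length, the 24 hr value was 0.98 (adjusted p = 0.027) and the call ended. The call also ended when 7 of the 15 libraries were left out one at a time, namely uninjured 2, 4 and 5, 4 hr 3 and 24 hr 1, 2 and 3, with adjusted p up to 0.023. With the library scale set by size factors the value was 0.55 (adjusted p = 0.050), and it was 0.56 (adjusted p = 0.21) once the mitochondrial share entered the fit. The direction at 24 hr was the same in every alternative run, while the small 4 hr difference turned to between -0.17 and -0.05 in 5 of them.

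Among the other V1 genes, the peripheral stalk subunit H gene VhaSFD came closest to the threshold, and it is described with several others below it that were chosen after their values were seen. Subunit H contacts both domains and is known in yeast for keeping free V1 from splitting ATP. VhaSFD lies on 2L at 16722883 to 16727826, minus strand, with 2829 exonic bases. Its uninjured levels were 32.2, 24.8, 35.9, 24.9 and 19.7 TPM. At 4 hr they were 75.5, 67.9, 29.6, 29.0 and 32.8 TPM, and at 24 hr 77.1, 82.8, 90.5, 35.4 and 52.1 TPM. Replicates 1 and 2 were above all uninjured libraries at 4 hr, and at 24 hr all but replicate 4 were. The log2 fold change was 0.66 at 4 hr (SE 0.32, adjusted p = 0.19) and 1.22 at 24 hr (SE 0.32, adjusted p = 0.019, limma). Left out of the fit, 24 hr replicate 4, the lowest at 24 hr, took the adjusted p of the 24 hr comparison to 0.0097, which passes the threshold. In 14 of the 15 fits with 1 library left out there was no call, with adjusted p up to 0.057. Leaving out the 4 libraries with a length trend gave 1.01 (adjusted p = 0.088), the length correction gave 0.57 (adjusted p = 0.11), size factors gave 0.73 (adjusted p = 0.079) and the mitochondrial share in the fit gave 0.40 (adjusted p = 0.59).

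The ring subunits showed smaller differences. Vha55, the gene of subunit B on 3R (12623762 to 12627829, minus strand), was at 192, 142, 226, 199.6 and 126 TPM in uninjured libraries. It was at 259, 289, 219, 124 and 191 TPM at 4 hr and at 315, 307, 329.6, 188 and 216 TPM at 24 hr. The highest 3 libraries at 24 hr were above all uninjured ones and the other 2 were among them, with a log2 fold change of 0.61 (SE 0.24, adjusted p = 0.077, limma) that became -0.04 when corrected for length or for the mitochondrial share. Both A subunit genes lie near each other on 2L, Vha68-1 at 13000770 to 13004107 on the minus strand and Vha68-2 at 12974322 to 12978607 on the plus strand.

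Vha68-1 was at 26.9, 36.5, 55.9, 39.1 and 26.6 TPM in uninjured libraries, at 68.9, 55.5, 50.7, 24.4 and 42.3 TPM at 4 hr and at 62.4, 56.1, 51.7, 36.7 and 38.6 TPM at 24 hr. Vha68-2 was at 8.48, 16.7, 21.6, 17.3 and 9.22 TPM, at 24.0, 29.3, 14.4, 10.8 and 13.7 TPM and at 28.1, 36.8, 27.0, 16.4 and 14.8 TPM in the same order. Both genes overlapped between all groups and neither passed the test. The peripheral stalk genes Vha26 (E) and Vha13 (G) likewise did not pass. Vha26 ranged over 133 to 213 TPM in uninjured libraries and 189 to 264 TPM at 24 hr, and Vha13 over 41.1 to 103 and 54.7 to 120.3 TPM.

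Vha14-1, the partner of Vha36-1 in the central stalk, had the lowest log2 fold change of the Vha genes at 24 hr. It encodes subunit F from a single exon of 659 bases on 2R (15679426 to 15680084, minus strand). The uninjured libraries were at 60.7, 50.0, 72.7, 71.4 and 78.5 TPM. The 4 hr libraries were at 35.4, 44.6, 54.8, 64.0 and 73.1 TPM, and the 24 hr libraries at 26.5, 29.2, 33.4, 59.3 and 86.6 TPM. At 24 hr, replicates 1 to 3 were below every uninjured library, replicate 4 was within their range and replicate 5 was above all of them. The log2 fold change of -0.63 (SE 0.30, adjusted p = 0.12, limma) was not past the threshold, although only 3.51% of all tested genes had a lower value. It ran from -1.12 (adjusted p = 0.061) with size factors to -0.24 (adjusted p = 0.61) without the 4 libraries with a length trend and -0.045 (adjusted p = 0.98) with the mitochondrial share in the fit.

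**Figure D3:**
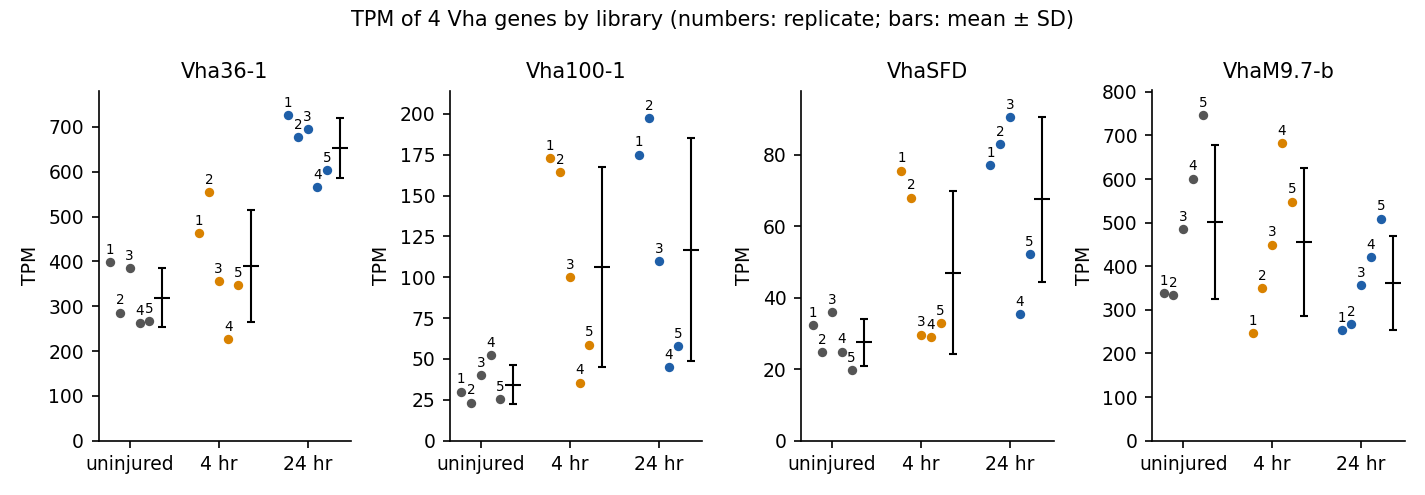
TPM in each library (points numbered by replicate) with the group mean and SD for Vha36-1, Vha100-1, VhaSFD and VhaM9.7-b. All 24 hr points of Vha36-1, from 565 to 726 TPM, are above the uninjured and 4 hr points, whereas the other 3 genes overlap between groups.

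In the V0 domain, the genes of subunit a had the highest log2 fold changes of the 8 tested genes, without passing the threshold. Subunit a forms the channels by which protons reach and leave the rotating ring, and Vha100-1 is known in flies from work on neurons, where it acts at synaptic vesicles. It lies on 3R at 29131193 to 29137980, plus strand, with 3289 exonic bases. Uninjured libraries held 30.0, 23.2, 40.0, 52.5 and 25.5 TPM of Vha100-1. At 4 hr the levels were 173, 164, 100.1, 35.6 and 58.8 TPM, and at 24 hr they were 175, 197, 109.8, 44.9 and 57.7 TPM. In both TBI groups replicate 4 was within the uninjured range and the other 4 libraries were above it, with the highest values in replicates 1 and 2.

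The log2 fold change of Vha100-1 was 1.44 at 4 hr (SE 0.45, adjusted p = 0.043) and 1.58 at 24 hr (SE 0.45, adjusted p = 0.027, limma), which was 1.13 and 1.07 above the median of all genes. At 24 hr, 94.6% of tested genes had a smaller value. At the looser limit of adjusted p below 0.05, it was 1 of 2 Vha genes called at 4 hr, with Vha100-2. At 24 hr Vha100-1 was 1 of 3, with Vha36-1 and VhaSFD. Of all genes, 9.41% and 13.3% were called higher at these times. Vha100-2 passed the filter only through the TBI groups, as given below, so its values support no difference. Without 4 hr replicate 4, its lowest library at 4 hr, Vha100-1 passed the main threshold at 4 hr (adjusted p = 0.0090). In 14 of the 15 fits with 1 library left out it was not called at 4 hr, with adjusted p up to 0.12. Without the 4 libraries that had a length trend, which are also the 4 with the highest Vha100-1, the values were 0.84 (adjusted p = 0.23) at 4 hr and 0.99 (adjusted p = 0.16) at 24 hr. Once the mitochondrial share entered the fit they were 0.25 (adjusted p = 0.58) and 0.19 (adjusted p = 0.84). The mitochondrial share of TPM was 17.2% and 11.5% in replicates 1 and 2 at 4 hr and 43.2% in replicate 4, whose Vha100-1 was lowest.

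Since Vha100-1 is known from neurons, the neuron markers were set beside it. Their summed share was 0.00974% of TPM in uninjured libraries (0.00528% to 0.0122%), 0.0120% at 4 hr (0.00751% to 0.0146%) and 0.0127% at 24 hr (0.00583% to 0.0264%), with overlapping groups (exact two-sided permutation p = 0.214 and 0.635). At 4 hr, 4 of 5 libraries were above all uninjured ones, and at 24 hr 1 of 5 was. All 12 neuron markers were above 0 in at least 10 of the 15 libraries, and they did not move together. Over the uninjured, 4 hr and 24 hr groups the means of nSyb were 6.63, 13.0 and 19.7 TPM. Those of elav were 15.7, 24.7 and 32.8 TPM and those of Syt1 3.60, 7.75 and 8.17 TPM. Snap25 was at 24.2, 19.5 and 16.9 TPM and fne at 7.19, 6.59 and 3.89 TPM. Of the rest, ChAT, Gad1, onecut, VGlut and brp had higher means at 24 hr than in uninjured libraries, and cpx and para lower ones. The uninjured sum weighs cpx (32.7 TPM) and Snap25 most, and both were lower at 24 hr. The summed share of the ensheathing glia markers axo and rumpel was 0.0239%, 0.0286% and 0.0486%, and at 24 hr it lay above the uninjured libraries with no overlap. Cortex glia markers had mean shares of 0.0528%, 0.102% and 0.143%, and surface glia markers 0.00144%, 0.00448% and 0.00402%. For cortex glia, 3 of 5 libraries at 4 hr and 4 of 5 at 24 hr were above all uninjured ones. Some of these glia markers were abundant. In the uninjured, 4 hr and 24 hr groups the means of Cyp4g15 were 423, 922 and 1246 TPM. Those of rumpel were 236, 280 and 474 TPM and those of zyd 104, 94.4 and 171 TPM, whereas wrapper was at 1.43, 3.67 and 14.1 TPM. The part of these other cells in the level of any Vha gene was not tested.

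Vha100-2, on 3R at 18390323 to 18399169 (minus strand), encodes a second subunit a at a much lower level. It was at 0.740, 1.64, 0, 5.38 and 3.22 TPM in uninjured libraries, at 10.4, 9.28, 11.6, 4.00 and 3.34 TPM at 4 hr and at 10.7, 6.42, 8.26, 3.59 and 2.27 TPM at 24 hr. Replicates 1 to 3 of each TBI group were above every uninjured library and replicates 4 and 5 were among them. The log2 fold change was 1.60 at 4 hr (SE 0.50, adjusted p = 0.042) and 1.32 at 24 hr (SE 0.50, adjusted p = 0.069, limma). At these low levels the value rests on the pseudocount, and with 0.1 TPM in place of 1 TPM the 24 hr value was 2.18 (adjusted p = 0.077). Uninjured replicates 1 and 3 were below 1 TPM and every TBI library was above it. The gene thus passed the filter only through the TBI groups, so these values support no difference. The share of Vha100-1 in subunit a was 94.0%, 92.5% and 94.6% in the 3 groups.

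The genes of the proton-binding ring had overlapping levels in all groups. Vha16-1, the subunit c gene on 2R (6625242 to 6633090, minus strand), was at 152, 124, 199.9, 126 and 131 TPM in uninjured libraries. At 4 hr it was at 207, 167, 207, 177 and 193 TPM and at 24 hr at 143, 127, 192, 174 and 201 TPM. All 4 hr libraries were above 4 of the 5 uninjured ones, and uninjured replicate 3 lay among them, while the 24 hr libraries spread over the uninjured range, and the gene did not pass the test at either time. VhaPPA1-1, the c'' subunit, ranged from 172 to 273 TPM in uninjured libraries and from 239.9 to 316 TPM at 24 hr, and VhaAC39-1, subunit d, from 130.2 to 287 and from 199 to 280.2 TPM. Neither passed the test.

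The e subunit genes were the members of V0 below 0 at 24 hr. VhaM9.7-b, on 3L at 21539862 to 21541215 (plus strand, 1216 exonic bases), was at 338, 334, 485, 601 and 747 TPM in uninjured libraries. It was at 247, 349.7, 449.5, 683 and 548 TPM at 4 hr and at 253, 267, 357, 421 and 509 TPM at 24 hr. Replicates 1 and 2 at 24 hr were below all uninjured libraries and the others were among them, with a log2 fold change of -0.45 (SE 0.29, adjusted p = 0.25, limma) that became 0.09 with the mitochondrial share in the fit. VhaM9.7-a was at 41.1, 25.4, 31.3, 80.9 and 31.0 TPM in uninjured libraries, 31.1, 41.9, 45.9, 58.9 and 50.5 TPM at 4 hr and 40.9, 12.5, 13.8, 34.4 and 56.2 TPM at 24 hr, with overlapping groups and a 24 hr log2 fold change of -0.50 (SE 0.39, adjusted p = 0.34). VhaM9.7-c, at 11.8 to 33.7 TPM in uninjured libraries and 9.53 to 22.8 TPM at 24 hr, had -0.85 at 4 hr (SE 0.35, adjusted p = 0.12) and -0.51 at 24 hr (SE 0.35, adjusted p = 0.29).

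Neither of the accessory genes passed the test. AC45 is a membrane glycoprotein that associates with V0 and, in mammals, helps to sort the pump. VhaAC45, on 2R at 9207561 to 9209774 (plus strand), was at 53.5, 44.5, 101, 68.0 and 41.8 TPM in uninjured libraries, 82.8, 102, 72.7, 46.2 and 80.3 TPM at 4 hr and 96.8, 104, 113, 78.5 and 86.7 TPM at 24 hr. One uninjured library, replicate 3, reached the 24 hr range and the other 4 were below it, with a log2 fold change of 0.69 (SE 0.25, adjusted p = 0.056, limma). Its relative VhaAC45RP, on 3R at 30164692 to 30166419 (minus strand), was at 3.68, 0.150, 0, 0.720 and 0 TPM in uninjured libraries, 5.96, 9.7, 2.36, 2.68 and 0.900 TPM at 4 hr and 18.3, 2.84, 2.6, 0 and 1.08 TPM at 24 hr. The groups overlapped, with log2 fold changes of 1.51 (SE 0.67, adjusted p = 0.15) and 1.18 (SE 0.67, adjusted p = 0.20), the latter turning to -0.12 with the mitochondrial share in the fit. VhaAC45RP passed the filter only through the TBI groups, since 1 of 5 uninjured libraries reached 1 TPM against 4 of 5 at each time, so these values support no difference. ATP6AP2, another accessory protein of the pump whose symbol falls outside the rule, was chosen after its values were seen and ranged from 369.96 to 609.65 TPM in uninjured libraries, 470.81 to 608.52 at 4 hr and 509.72 to 760.24 at 24 hr.

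The make-up of the summed Vha transcript differed at 24 hr in the share of V1. The sum over all Vha genes was 2080 ± 320 TPM in uninjured libraries, 2418 ± 239 at 4 hr and 2694 ± 208 at 24 hr (SD, n = 5 each), and 4 of 5 libraries at 24 hr were above all uninjured ones. The V1 sum was 873 ± 156, 1066 ± 262 and 1402 ± 158 TPM, and at 24 hr it did not overlap the uninjured group. The V0 sum was 1144 ± 221, 1270.5 ± 74.4 and 1190.5 ± 92.8 TPM, with overlapping groups. These sums and the shares below are descriptions with no test. With mitochondrial transcripts taken out of the total, the Vha sums were 3644, 3358 and 3589 TPM and the V1 sums 1533, 1448 and 1857 TPM, so the order of the Vha sums depended on that scale. The V1 groups overlapped on that scale, with 4 of 5 libraries at 24 hr above all uninjured ones, and also with size factors, with 2 of 5 above.

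Shares within the pump do not depend on the library total. V1 made up 42.2 ± 5.51% of the Vha sum in uninjured libraries (35.3% to 48.1%), 43.6 ± 6.98% at 4 hr and 52.0 ± 2.92% at 24 hr (48.9% to 54.9%). The 24 hr libraries lay above the uninjured ones without overlap. Vha36-1 alone took 15.5 ± 3.24% of the Vha sum in uninjured libraries, 15.8 ± 3.68% at 4 hr and 24.3 ± 1.63% at 24 hr, where each library was above all others. Without Vha36-1, the V1 share was 31.7%, 33.2% and 36.6% and the groups overlapped, with 3 of 5 libraries at 24 hr above the uninjured range. Without VhaM9.7-b, it was 55.4%, 53.9% and 60.1%, and the 24 hr libraries stayed above both other groups.

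Ratios between subunits were formed within each library. For Vha36-1, the ratio to Vha26, the peripheral stalk subunit E gene, was 2.02, 1.86 and 3.10 in the uninjured, 4 hr and 24 hr groups, with 24 hr above both others in every library. Its ratio to Vha55 was 1.84, 1.80 and 2.48, and there 24 hr was above 4 hr without overlap, and 4 of 5 libraries at 24 hr were above all uninjured ones. Within V0, the ratio of VhaM9.7-b to Vha100-1 was 15.7 ± 7.72 in uninjured libraries (11.3 to 29.4), 7.31 ± 7.32 at 4 hr (1.43 to 19.2) and 4.85 ± 3.96 at 24 hr (1.35 to 9.39). All 24 hr libraries were below the uninjured ones and the 4 hr libraries spanned both. VhaM9.7-b has 1216 exonic bases and Vha100-1 has 3289. The lowest ratios of each TBI group were in replicates 1 and 2, where levels climbed with exonic length. The part of that trend in the ratio was not tested.

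**Figure D4:**
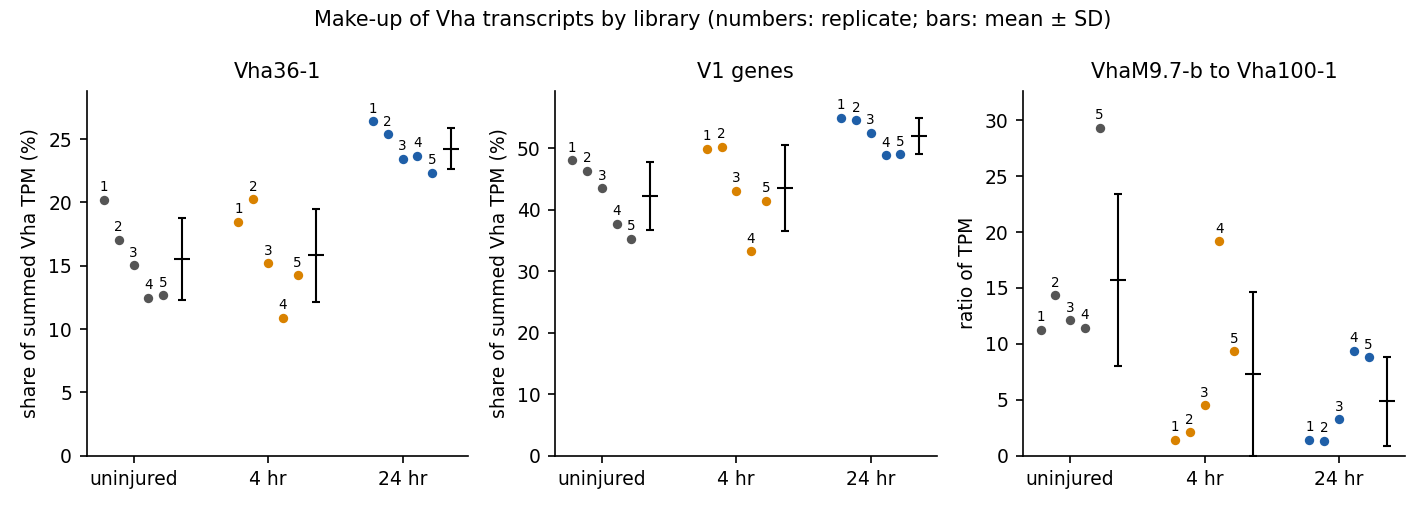
Share of Vha36-1 in the summed Vha TPM, share of V1 in the same sum, and ratio of VhaM9.7-b to Vha100-1, in each library with the group mean and SD. At 24 hr the Vha36-1 share was 22.4% to 26.4%, above all other libraries, and the ratio was 1.35 to 9.39, below all uninjured libraries. The lowest ratios of each TBI group were in replicates 1 and 2, where levels climbed with exonic length.

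In the order of levels, Vha36-1 moved from second place in uninjured astrocytes to first at 24 hr, with a mean of 654 ± 66.8 TPM, above 98.4% of all tested genes. VhaM9.7-b followed at 361 ± 107 TPM, and the ranges of the pair did not overlap at 24 hr. Next came Vha55 at 271, VhaPPA1-1 at 264, VhaAC39-1 at 226 and Vha26 at 212.5 TPM, which overlapped each other. Vha100-1 was the 13th of the 18 in uninjured libraries at 34.2 TPM and the 8th at 24 hr at 117 TPM.

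The Vha genes also differed by length, a feature the choice of genes did not use. Across the 18 tested genes, Spearman's rho between log2 fold change and exonic length was 0.78 at 4 hr and 0.70 at 24 hr, beside 0.20 and 0.32 across the 8052 tested genes with a length. For 24 hr against 4 hr it was 0.23 beside 0.16. These are descriptions across genes, which share libraries and are not replicates. With a split at 1300 bases, set after the values were seen, the 12 longer Vha genes were all above 0 at 24 hr with a median of 0.65 (0.19 to 1.58), and the 6 shorter ones had a median of -0.47 (-0.63 to 1.05), with Vha36-1 and Vha13 above 0. Over all genes the medians were 0.64 for long and 0.15 for short ones.

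**Figure D5:**
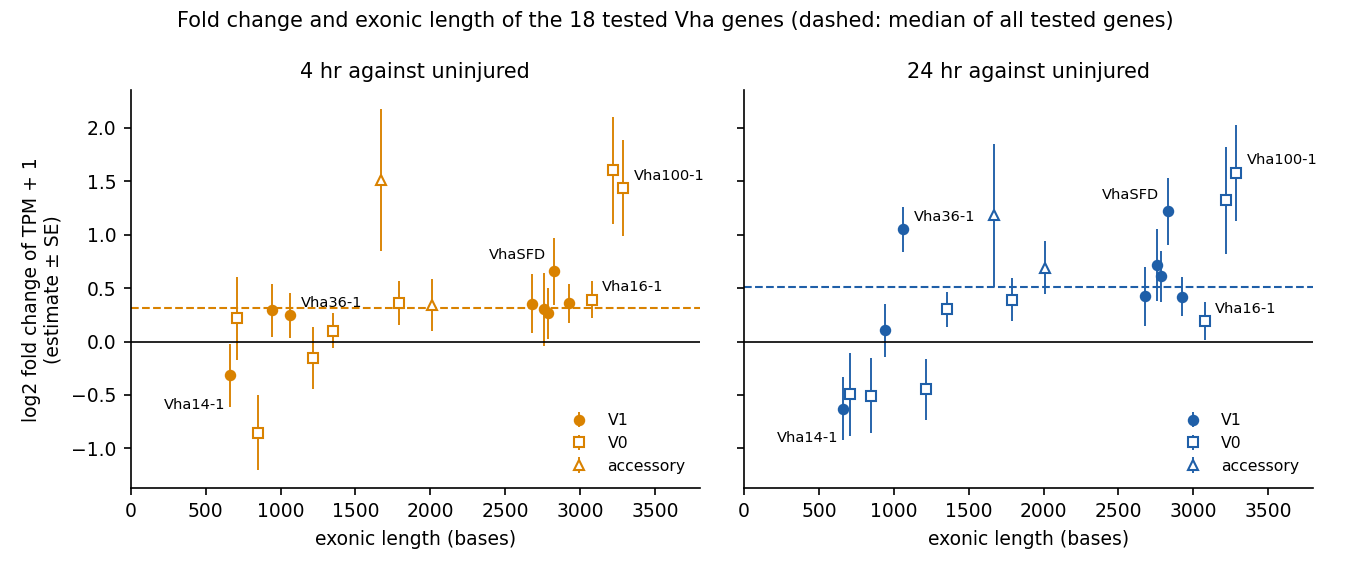
Log2 fold change against uninjured with its standard error, by exonic length in bases, for the 18 tested Vha genes at 4 hr and 24 hr. The 12 genes longer than 1300 bases are above 0 at both times, and Vha36-1, with 1064 bases, stands at 1.05 at 24 hr among shorter genes with a median of -0.47.

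At 4 hr the 12 longer Vha genes were also all above 0, with a median of 0.36, and the 6 shorter ones had a median of 0.03. The length trend within a library was steep in replicates 1 and 2 of each TBI group, and those libraries held the highest Vha100-1. The part of that trend in the differences between Vha genes was not tested beyond the fits that left these libraries out or corrected for length. After correction for length, Vha36-1 stood at 0.74 at 24 hr (adjusted p = 0.031, limma).

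The genes around the pump were taken from 5 lists, whose counts are read beside the shares over all genes: 5.76% called higher at 4 hr and 2.26% at 24 hr, and 27.1% and 39.2% at an unadjusted p below 0.05. The list of V-ATPase assembly and control genes, which includes Mitf, the fly member of the transcription factor family that switches on lysosomal genes, had 0 of 6 called at either time, with medians of 0.21 at 4 hr and 0.11 at 24 hr. At an unadjusted p below 0.05 it had 0 genes at 4 hr and 1 at 24 hr. Mitf itself was at 56.3 ± 14.0, 40.2 ± 10.1 and 41.6 ± 11.7 TPM. Lysosomal nutrient sensing genes had 0 of 7 called, with medians of 0.09 and -0.38 and with 1 and 0 genes at an unadjusted p below 0.05. Endolysosomal ion transport genes had 0 of 3 called, with medians of 0.24 and 0.65 and 1 and 2 genes at that level.

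Of the acid-dependent lysosomal proteins, 12 of 16 were tested, and 3 rose at 4 hr and 1 at 24 hr, while none was called lower, beside 5.76% and 2.26% of all genes called higher. The medians were 0.57 and 1.17. At an unadjusted p below 0.05 there were 5 of 12 and 10 of 12, beside 27.1% and 39.2% of all genes. The lysosomal lipid and sugar transporter gene spin rose from 35.7 ± 17.8 to 268 ± 99.5 TPM at 4 hr (log2 fold change 2.91, SE 0.33, adjusted p = 8.5e-06, limma) and was at 95.6 ± 32.8 TPM at 24 hr. The protease gene CtsF rose from 117 ± 52.8 to 399 ± 224 TPM (1.68, SE 0.39, adjusted p = 0.0082) and the sterol carrier gene Npc2a from 20.1 ± 4.19 to 52.9 ± 19.1 TPM (1.29, SE 0.26, adjusted p = 0.0028) at 4 hr. CtsB, another protease gene, rose from 70.0 ± 14.0 to 163 ± 33.7 TPM at 24 hr (1.20, SE 0.23, adjusted p = 0.0047). The calls of CtsF, Npc2a and CtsB depended on the fit: with the mitochondrial share included they were lost, at 0.71 (adjusted p = 0.10), 0.88 (adjusted p = 0.043) and 0.74 (adjusted p = 0.16), and leaving out 1 library ended them in 7, 3 and 6 of 15 fits. None of the 18 Vha genes was called at 4 hr, when spin, CtsF and Npc2a were.

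The mitochondrial F-type ATP synthase, the related rotary enzyme that makes ATP, was listed for comparison. Of its 13 nuclear genes tested, 0 were called at either time, beside 5.76% and 2.26% of all genes called higher. At an unadjusted p below 0.05 there were 1 and 3, beside 27.1% and 39.2% of all genes. Their medians were 0.06 at 4 hr and -0.31 at 24 hr, and 4 of 13 were above 0 at 24 hr, beside 14 of 18 Vha genes and 79.7% of all genes. None of the lists had a call between 4 hr and 24 hr.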

How the data were processed

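The authors sorted the cells, made poly(A)-primed Smart-seq2 libraries, sequenced both ends of the fragments, removed adaptors with Trimmomatic, mapped to dm6 with HISAT2 and took gene counts with HTSeq. The deposited table holds TPM for 17509 genes in 15 libraries, and how TPM was computed is not given in the sources used here. The submitters' processing notes name STAR 2.6.0a, RSEM 1.3.1, HISAT2, HTSeq, Trimmomatic 0.39, FastQC 0.11.7, DESeq2 1.30.1 and R 4.0.0 without saying which step each served. TPM values carry no counts, so no count test was run and no counting interval is given.

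Symbols and positions came from the BDGP6.54 annotation (dm6), release 115, which matched 17398 identifiers. Genes with at least 1 TPM in at least 5 libraries (8101) were tested on log2(TPM + 1) with limma 3.58.1 in R 4.3.3. The fit had a variance trend, 3 groups in 1 fit and Benjamini-Hochberg adjustment. Calls required an adjusted p below 0.01 and a log2 fold change of at least 1 in size. The study set limits of this size on DESeq2 results from read counts, so its numbers of calls are not on the same measure. The fit was tested on simulated data with independent noise in each gene. These data had no length trend and no shift in mitochondrial share, so that test does not bear on either. Shares used the 32 Vha genes taken, without Vha44, in Python 3.11.15 with pandas 2.3.3, NumPy 2.4.6, SciPy 1.17.1 and matplotlib 3.10.9. The study describes the replicates as biological, and the sample labels only number them. The p-values set a difference between groups against the spread between these samples.

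The members and lists were chosen with earlier results of these data known. Values in every library are given for called Vha genes, the main isoforms of subunits a, c, A, B and AC45 and the 2 highest isoforms of subunits a, A, e and AC45. Other genes named with values were chosen after their values were seen. Alternatives covered the pseudocount, filter, variance model, library scale, length and mitochondrial corrections, a replicate block and each library left out. Sequences of the genes were not used here.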

Additional observations from a re-analysis of the deposited data

Results flagged for a closer look

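In 8 of 78 groups of 5 libraries examined, 1 library stood far from the others (Dixon's test at its 95% level), and chance gives this in about 1 in 20 groups. VhaAC45RP reached 18.3 TPM in 24 hr replicate 1, with the others between 0 and 2.84 TPM, and 3.68 TPM in uninjured replicate 1, with the others between 0 and 0.72 TPM. The share of VhaAC45 in the AC45 sum was correspondingly low in those libraries, at 84.1% in 24 hr replicate 1 (others 97.3% to 100%) and 93.6% in uninjured replicate 1 (others 99.0% to 100%). Uninjured replicate 3 was high for VhaAC39-1, at 287 TPM (others 130.2 to 176), and for Vha26, at 213 TPM (others 133 to 155). VhaM9.7-a was at 80.9 TPM in uninjured replicate 4 (others 25.4 to 41.1), and Vha13 was at 120.3 TPM in 24 hr replicate 5 (others 54.7 to 72.5).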

How the results depend on the processing

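The number of Vha genes called at 24 hr was 1. It was 0 without the filter, without the variance trend, with size factors, quantile scaling, mitochondrial genes removed, a length correction or the mitochondrial share as covariate, and 0 without the 4 libraries with a length trend, a setting chosen after seeing the data in which 243, 37 and 45 of all 7553 genes tested were called at 4 hr, at 24 hr and between them. It was 3 with sample weights, with the replicate block and at an adjusted p below 0.05, where 2 were called at 4 hr. With 1 library left out it ran from 0 to 2 at 24 hr and from 0 to 1 at 4 hr. The added calls under weights and the block were VhaSFD and Vha100-1, and the log2 fold change of Vha36-1 at 24 hr stayed between 0.55 and 1.13 in all settings. The cause of the lost calls was not tested. The numbers were not taken to pair the libraries. They are those of the sample titles, while the data columns of the uninjured and 24 hr groups carry a different run of numbers. In no comparison were all 5 correlations of same-numbered deviations above 0.1. They ran from -0.04 to 0.21 against uninjured and from -0.02 to 0.54 between 4 hr and 24 hr, where 4 of 5 were at 0.36 or more and 1 of 5 libraries correlated best with its own number. The replicate block raised the calls over all genes at 24 hr from 188 to 598.

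Scaling moved the medians. The Vha median was -0.0089 at 4 hr and -0.075 at 24 hr with size factors, -0.013 and 0.055 with quantile scaling, -0.014 and 0.017 without mitochondrial genes, -0.042 and -0.13 after the length correction and 0.044 and 0.081 with the mitochondrial covariate. At 4 hr Vha36-1 turned to -0.095 with size factors, -0.093 with quantile scaling, -0.10 without mitochondrial genes, -0.17 with the covariate and -0.047 without the 4 libraries. Under the covariate VhaSFD turned to -0.044 and Vha14-1 to 0.18 at 4 hr, and VhaM9.7-b to 0.085, VhaM9.7-c to 0.020, VhaAC45RP to -0.12 and Vha55 to -0.042 at 24 hr. Vha55 was at -0.036 after the length correction.

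Without mitochondrial genes the sums in the uninjured, 4 hr and 24 hr groups were 3644, 3358 and 3589 TPM for Vha, 1533, 1448 and 1857 TPM for V1, 2002, 1800.4 and 1599 TPM for V0 and 108, 110.0 and 133 TPM for the accessory genes. With size factors the sums in uninjured and at 24 hr were 2443 and 2249.6 for Vha, 1027 and 1166 for V1, 1343 and 1001 for V0 and 72.5 and 83.4 for the accessory genes, so that V0 was lower at 24 hr on both scales, with 4 of 5 libraries below all uninjured ones with size factors.

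Over all genes, 485, 188 and 162 were called at 4 hr, 24 hr and between them. At 24 hr the count was 102 without the filter, 72 with size factors, 66 with quantile scaling, 81 without mitochondrial genes, 81 after the length correction, 27 with the covariate, 586 with weights and 1097 at an adjusted p below 0.05, and from 69 to 288 with 1 library left out. At an adjusted p below 0.05 it was 820 at 4 hr and 294 between times, where it was 249 after the length correction and 279 with the covariate. The share of calls that were higher was 96.3% at 4 hr, and 81.7%, 77.7%, 82.7%, 81.9% and 85.7% with size factors, quantile scaling, mitochondrial genes removed, length correction and covariate. At 24 hr it was 97.3%, and 69.4%, 68.2%, 91.4%, 69.1% and 100% in the same order, and between times it was 21.0%, and 35.5% with the covariate. The spin call held in all 28 alternatives, while that of CtsF was lost in 7 of 15 fits with 1 library left out and 7 of 13 others, Npc2a in 3 and 6 and CtsB in 6 and 7. TPM gives no depth, so what depth limits cannot be stated.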
